A study of Mus musculus with 4 samples.

Results

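The cells described here are germ cells of the E14.5 mouse ovary in which transcripts of Sycp3 and of Pou5f1 were both detected. Sycp3 encodes an axial element protein of the synaptonemal complex, and Pou5f1 encodes the pluripotency transcription factor OCT4. Cells of the E14.5 library were gated as germ cells when a UMI (unique molecular identifier, which stands for 1 captured transcript) was present for at least 3 of Dazl, Ddx4, Dnd1, Mael, Dppa5a and Mov10l1 and none for Alas2, a gene of red blood cells. Of the 2390 cells that passed this gate, 1541 had at least 1 UMI of both Sycp3 and Pou5f1 (64.5%, Clopper-Pearson 95% interval 62.5 to 66.4). They were taken from 4787 cells of that library and 19387 cells in all. The rest of the gate held 529 cells with Sycp3 only (22.1%), 284 with Pou5f1 only (11.9%) and 36 with neither (1.51%).

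The gonads came from XX embryos of the C57BL/6 strain, sampled at 4 stages 1 day apart (E11.5 to E14.5), with no genetic change and no treatment named in the labels. Droplet libraries were made with version 2 of the 10x Genomics 3′ kit, with 1 library per stage, and the labels do not say how many embryos were pooled. No difference between classes or stages could therefore be tested over replicates. Intervals cover counting error only, and stage and library cannot be told apart.

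In the fetal ovary, primordial germ cells stop dividing by mitosis and enter the prophase of meiosis at mid-gestation. Retinoic acid and BMP signals induce Stra8, and with it genes for the chromosome axis, for programmed DNA breaks and for their repair, while the pluripotency genes that germ cells carry from their specification are shut off. Entry is not synchronous across the ovary, so cells before and after it lie side by side at one stage.

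The promoters of 5 meiotic genes described below are printed, of which 4 were picked because they hold the searched letters, and that of Stra8 because it holds none. Each line is the 250 bases before the RefSeq start site (GRCm38.p6), read 5′ to 3′ on the strand of the gene. Capitals mark CACGTG, the palindromic E-box bound by MAX heterodimers, and GCGGGAA, an E2F-type sequence, searched on both strands so that TTCCCGC counts as a match. The windows are chr10:88459337-88459586 on the plus strand for Sycp3, chr15:85131958-85132207 on the minus strand for Smc1b, chr3:102936101-102936350 on the minus strand for Sycp1, chr9:50561269-50561518 on the minus strand for Tex12 and chr6:34920698-34920947 on the plus strand for Stra8. All of them lie immediately upstream of the first exon.
Sycp3: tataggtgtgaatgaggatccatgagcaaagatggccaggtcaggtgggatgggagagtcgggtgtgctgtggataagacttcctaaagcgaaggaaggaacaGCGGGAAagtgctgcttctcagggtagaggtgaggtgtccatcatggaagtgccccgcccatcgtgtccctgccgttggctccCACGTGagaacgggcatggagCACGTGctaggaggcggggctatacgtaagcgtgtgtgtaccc
Smc1b: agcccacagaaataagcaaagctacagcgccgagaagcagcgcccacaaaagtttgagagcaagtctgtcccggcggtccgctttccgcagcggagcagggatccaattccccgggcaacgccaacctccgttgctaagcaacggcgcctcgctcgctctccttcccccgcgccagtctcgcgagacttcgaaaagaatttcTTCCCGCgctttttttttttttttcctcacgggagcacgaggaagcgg
Sycp1: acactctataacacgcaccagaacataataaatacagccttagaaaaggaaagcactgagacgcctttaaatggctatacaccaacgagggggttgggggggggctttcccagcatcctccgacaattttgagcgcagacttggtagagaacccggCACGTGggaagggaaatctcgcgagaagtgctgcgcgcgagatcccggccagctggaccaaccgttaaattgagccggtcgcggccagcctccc
Tex12: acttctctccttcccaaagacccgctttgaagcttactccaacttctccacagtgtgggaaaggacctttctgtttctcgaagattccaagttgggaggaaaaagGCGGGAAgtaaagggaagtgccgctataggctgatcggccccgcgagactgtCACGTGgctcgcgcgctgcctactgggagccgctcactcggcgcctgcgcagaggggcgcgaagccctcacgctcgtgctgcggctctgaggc
Stra8: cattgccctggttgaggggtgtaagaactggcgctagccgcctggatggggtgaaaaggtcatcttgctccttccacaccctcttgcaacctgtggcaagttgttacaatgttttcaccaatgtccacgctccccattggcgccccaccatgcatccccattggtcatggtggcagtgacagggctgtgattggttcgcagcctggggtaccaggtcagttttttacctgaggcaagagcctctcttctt
The Sycp3 window held CACGTG at 64 and at 43 bases before the start and GCGGGAA at 147 bases. In the Smc1b window the E2F-type letters lay 48 bases before the start, and in the Sycp1 window the E-box lay 94 bases before it. The Tex12 window held both. Over 27025 genes with a promoter in the table, 6.86% held CACGTG, 4.38% held GCGGGAA and 10.8% held either. Of the 40 meiotic genes matched by symbol, Sycp3 among them, 45.0% held either, against 1 of 13 matched pluripotency genes. Among the 4492 matched genes abundant enough to be compared between the cells with both genes and those with Sycp3 only, 19.5% held either. The genes that differed between these classes, by the rule of size given below, were near that share: 18.1% of 160 matched genes lower in the cells with both genes held either, and 14.8% of 81 higher. Against Pou5f1 only it was 23.9% of 88 matched genes that were higher, where 19.5% of all 4295 compared held either. The windows of Stra8 and Pou5f1 held neither. A match of letters is a description of the sequence and is no evidence of binding in these cells.

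Depth differed between the classes. The 1541 cells had 7872 to 58642 UMIs each, with a median of 16302 and quartiles of 13348 and 20481, and a median of 3849 genes. The median was lower in the cells with Sycp3 only (13044) and higher in those with Pou5f1 only (18115). The share of cells with both genes moved with depth: with the gate cut into 4 depth groups of equal size it was 51.7%, 62.1%, 70.5% and 73.6% from the shallowest to the deepest. After every cell had been thinned at random to 7500 UMIs, 39.7% of the gated cells (37.7 to 41.7, 939 of 2366) still had both genes, and 928 of these were among the 1541. At that depth Sycp3 was seen in 72.7% and Pou5f1 in 61.2% of the gated cells, shares whose product is 44.5%. At 2000 UMIs per cell 8.65% had both (109 of the 1260 cells that then passed the gate).

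Many of the 1541 cells met the rule by a narrow margin. They held a median of 4 UMIs of Sycp3 (quartiles 2 and 7, highest 51) and 3 of Pou5f1 (quartiles 1 and 5, highest 20). Sycp3 was counted exactly 1 time in 295 of them (19.1%), Pou5f1 in 403 (26.2%) and both in 28, while 871 (56.5%) had at least 2 UMIs of each. Of the 6 gate genes, 694 cells had all 6, 677 had 5, 165 had 4 and 5 had 3. Just outside the rule lay 1 cell with 2 gate genes, 2 cells with 1 and 4 cells with none. Another 52 cells met the rule but for Alas2, which had 1 UMI in 39 of them.

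The name germ cell comes from the gate above, and it was checked against markers that the rule did not use. At 7500 UMIs per cell, Stra8 was detected in 93.0% of the 1541 cells (91.6 to 94.2). The share was 98.1% in the cells with Sycp3 only and 72.2% in those with Pou5f1 only. It was 9.14% (7.69 to 10.7) in the 1434 cells of the same library without any gate gene, whose median depth was 10032 UMIs. Those cells were picked for lacking germ cell transcripts, so their share is no measure of free RNA, whose part was not tested. Summed markers of supporting cells stood at 100 CPM (UMIs of a gene scaled to 1000000 UMIs in all), against 1394 in those 1434 cells, and all 12 of them had UMIs in the class, from 0.0365 CPM for Foxl2 to 17.4 CPM for Irx3. Wnt4 was found in 153 and Fst in 86 of the 1541 cells. Interstitial markers stood at 61.3 against 941 CPM, mesothelial markers at 53.3 against 784 CPM and immune markers at 19.6 against 250 CPM. Endothelial markers showed less contrast, at 37.9 against 132 CPM. At full depth, 41.2% of the 1541 cells and 46.0% of the 1434 cells had an endothelial marker UMI. All 8 erythroid markers were present, summing to 1262 CPM against 16854, with median cells at 1041 and 1236 CPM. The rule removed cells with Alas2 from the class but not from the 1434 cells. The difference in the erythroid sums is therefore no independent check. Of the Hbb-y UMIs, 2122 of 4117 (51.5%) sat in 2 cells. The doublet score marked 43 of the 1541 cells and 94 of the 4787 cells of the library. Cell barcodes that occur in more than 1 library numbered 175, and 21 of the 1541 cells carried one.

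**Figure D1:**
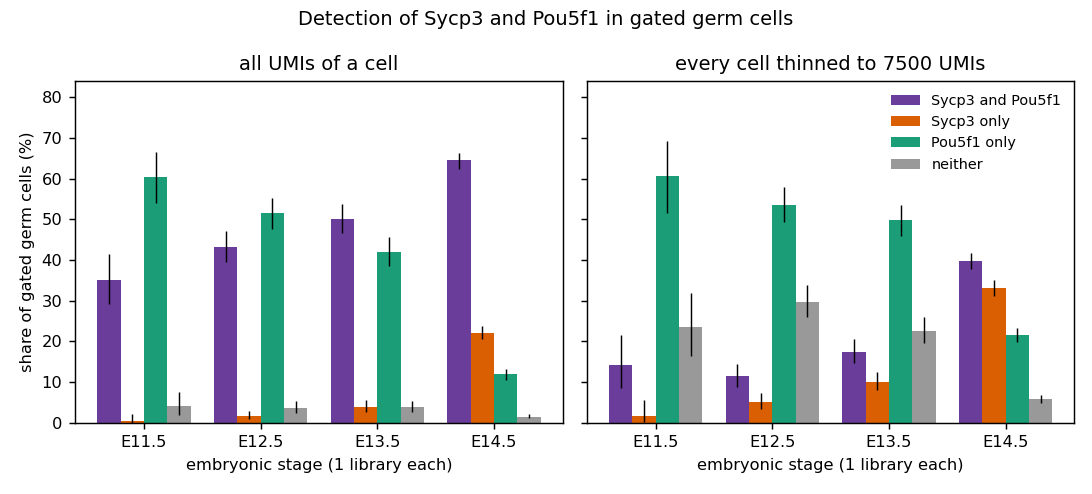
Share of gated germ cells (y axis, %) with Sycp3 and Pou5f1, Sycp3 only, Pou5f1 only or neither at each embryonic stage (x axis), with all UMIs (left) and after thinning every cell to 7500 UMIs (right). Bars are shares and lines are Clopper-Pearson 95% intervals, and the share with both genes at E14.5 is 64.5% on the left and 39.7% on the right. On the right the gate was applied after thinning, and it held 127 cells at E11.5 and 2366 at E14.5.

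To see whether detection recurs within a cell, the UMIs of each cell were split at random into a sorting set and a reading set. Both sets come from the same capture of the cell, so they cannot show whether a level is stable over time. Cells with Pou5f1 in the sorting set had it in the reading set in 76.7% of cases (74.4 to 78.8, 1461 cells), and cells without it in 39.2% (36.0 to 42.4, 929 cells). Their levels in the reading set were 214 and 88.8 CPM. For Sycp3 the shares were 83.3% and 45.5%, at 410 and 90.1 CPM. Both genes recurred together in 53.1% of the cells that had both in the sorting set, and they appeared in 34.0% of the others. Cells without a gene in the sorting set still held it in the reading set, at a lower level. Sycp3 stood at 203 CPM (196 to 211) in the reading set of cells with Pou5f1 in the sorting set and at 570 CPM (553 to 589) in that of cells without it. The median depth of these groups was 17071 and 13549 UMIs.

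The meiosis panel, which sums 47 genes for meiotic entry, the synaptonemal complex, meiotic cohesin and recombination without Sycp3, placed the cells with both genes between the other classes. Its level was 5170 CPM (Poisson interval 5143 to 5197) in the 1541 cells, 8866 (8798 to 8934) in the cells with Sycp3 only and 2752 (2708 to 2796) in those with Pou5f1 only. Among single cells of the class the panel ran from 2058 CPM at the lowest 5% to 10754 at the highest 5%, with a median of 4981. That range overlapped both neighbours, whose medians were 9228 and 2748 CPM. The log2 ratio was -0.78 (-0.79 to -0.76) against Sycp3 only and 0.91 (0.89 to 0.93) against Pou5f1 only.

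The pluripotency panel, 17 genes without Pou5f1, had the opposite order. It reached 1122 CPM (1109 to 1134) in the cells with both genes, 362 (348 to 376) in those with Sycp3 only and 1695 (1660 to 1730) in those with Pou5f1 only. Single cells with both genes ran from 139 CPM at the lowest 5% to 2327 at the highest 5%. The log2 ratios were 1.63 (1.58 to 1.69) and -0.60 (-0.63 to -0.56). Depth moved with both panels inside the class: from the shallowest to the deepest depth group, the meiosis panel was 7102, 6454, 5287 and 3911 CPM and the pluripotency panel 745, 910, 1108 and 1344 CPM. The order of the 3 classes was the same within each depth group for both panels.

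**Figure D2:**
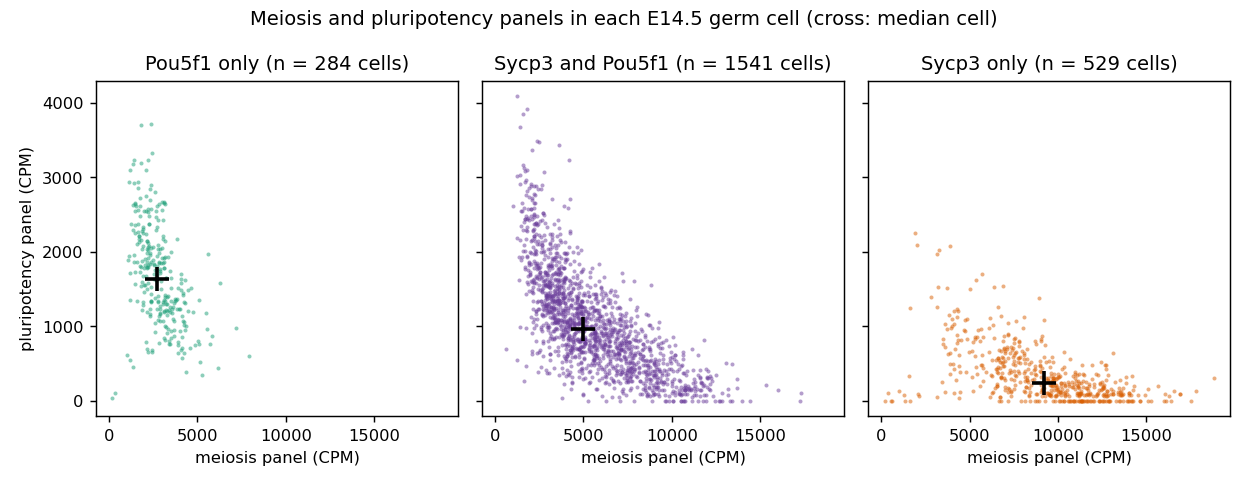
Meiosis panel (x axis, CPM) against pluripotency panel (y axis, CPM) in every E14.5 germ cell with Pou5f1 only (left), both genes (middle) or Sycp3 only (right), 1 point per cell, with a cross at the median. The cells with both genes spread from the region of the cells on the left to that of the cells on the right, and their median lies at 4981 CPM on the x axis.

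Single genes were compared by a rule of size. A gene entered with at least 50 UMIs over the classes compared and 20 CPM in the higher, and was counted as higher or lower with a ratio of at least 2 and Poisson intervals that did not overlap. The 9 genes of the rule were left out. Against Sycp3 only, 5699 genes entered and 314 passed (5.51%), of which 118 were higher (2.07%) and 196 lower (3.44%) in the cells with both genes. Against Pou5f1 only, 5443 entered and 118 passed (2.17%), of which 104 were higher (1.91%) and 14 lower (0.257%). The median log2 ratio over all genes that entered was -0.06 and 0.03. An intermediate level was common: of 5915 genes that entered either comparison, 79.9% had their level in the cells with both genes between those of the other classes, so such a place is not particular to the lists below. These comparisons share the cells with both genes, and a gene that passed only through a class where it is high had to differ there.

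The meiotic entry genes had median log2 ratios of -0.51 against Sycp3 only and 0.63 against Pou5f1 only. Stra8, the retinoic acid target needed for meiotic initiation, was at 920 CPM (909 to 932) in the cells with both genes. The cells with Sycp3 only held 1313 CPM (1286 to 1339) and those with Pou5f1 only 340 (324 to 356), so the class was 2.71-fold above the latter and within the 2-fold limit of the former. Meioc, which with the RNA helicase Ythdc2 sustains meiotic prophase, was at 95.2, 170 and 31.5 CPM in the same order, and Ythdc2 at 49.0, 75 and 31.7 CPM. Zglp1, a GATA-like factor of the oogenic programme, had the reverse order at 93.9, 63.0 and 105 CPM. Of 5 genes of this list that entered, none passed against Sycp3 only and 2, Stra8 and Meioc, were higher than in Pou5f1 only.

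The synaptonemal complex holds homologous chromosomes together along their length. Sycp1, its transverse filament, was at 408 CPM (400 to 416) in the cells with both genes, 715 (695 to 734) with Sycp3 only and 174 (163 to 186) with Pou5f1 only. The central element gene Tex12 was at 102 CPM, against 270 and 27.9, and Syce3 at 111, against 271 and 43.5. Sycp2, the axial partner of Sycp3, showed the widest spread of the list at 20.9 CPM, against 77.0 and 4.98. All 11 genes of this list entered both comparisons: 4 were lower than with Sycp3 only and 8 were higher than with Pou5f1 only, with median log2 ratios of -0.91 and 1.15. The exception in order was Trip13, the ATPase that removes HORMA-domain proteins from the axis, at 33.1, 26.6 and 36.0 CPM.

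Meiotic cohesins replace mitotic subunits on meiotic chromosomes. Smc1b was at 1103 CPM (1091 to 1116) in the cells with both genes, 2035 with Sycp3 only and 570 with Pou5f1 only, ratios of 1.85 and 1.94 that stayed within the 2-fold limit. Rec8, the meiotic kleisin, did not follow that order, with 158 CPM (153 to 163) in the cells with both genes and 152 (143 to 161) with Sycp3 only, levels whose intervals overlap, and 95 CPM with Pou5f1 only. Rad21, the mitotic kleisin, was at 70.6, 36.3 and 117 CPM. The summed mitotic cohesin genes differed little between the classes, at 804, 856 and 833 CPM.

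Recombination genes held the largest ratios of the meiosis panel. Prdm9, the histone methyltransferase that marks sites of meiotic DNA breaks, was at 22.6 CPM (20.8 to 24.4) in the cells with both genes. It was 4.28-fold higher with Sycp3 only (96.7 CPM, 89.7 to 104) and 11.1-fold lower with Pou5f1 only (2.03 CPM, from 11 UMIs). At 7500 UMIs per cell, Prdm9 was seen in 13.6% of the cells with both genes, 43.3% of those with Sycp3 only, 2.11% of those with Pou5f1 only and 0.837% of the cells without gate genes. The meiotic recombinase Dmc1 was at 41.1, 99.0 and 17.3 CPM, and Tex15, required for loading recombinases, at 147, 390 and 55.9 CPM. Spo11, which makes the breaks, was at 10.6, 19.3 and 5.90 CPM and too rare to enter. Of 26 genes in the table, 20 entered against Sycp3 only and 11 were lower, and 12 entered against Pou5f1 only and 5 were higher. None of them passed in the other direction. The heterodimer Psmc3ip and Mnd1, which assists strand exchange, stood apart with 42.7, 42.9 and 43.2 CPM for Psmc3ip and 43.7, 42.0 and 33.4 CPM for Mnd1.

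Of 4 genes for the attachment of telomeres to the nuclear envelope that entered, 2, Ccdc79 and Spdya, were lower than with Sycp3 only and higher than with Pou5f1 only. Ccdc79, which encodes TERB1, was at 23.4 CPM in the cells with both genes, 68.3 with Sycp3 only and 2.95 with Pou5f1 only. Spdya, an activator of Cdk2 at telomeres, was at 38.8, 126 and 6.82 CPM. Cdk2 itself differed little between the classes, at 20.8, 19.3 and 17.7 CPM. Of 9 oocyte transcription genes measured, 6 entered, and 2, Taf7l and Figla, were lower than with Sycp3 only and higher than with Pou5f1 only. Taf7l, a variant subunit of the general factor TFIID, was at 128 CPM (124 to 132), against 375 and 20.3. Figla, a transcription factor needed for primordial follicles, was at 34.2 CPM (32.0 to 36.4), against 93.3 and 3.69. At 7500 UMIs per cell, Figla was seen in 21.3% of the cells with both genes and in 1.41% of those with Pou5f1 only, and in 0.628% of the cells without gate genes. Cpeb1, a regulator of oocyte mRNA polyadenylation, had less contrast at 69.5, 92.6 and 50.9 CPM.

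Pluripotency genes were spread in the opposite direction. Dppa3, a chromatin protein of germ cells and early embryos, was at 511 CPM (502 to 519) in the cells with both genes, 166 (156 to 175) with Sycp3 only and 715 (692 to 737) with Pou5f1 only. Utf1, a chromatin factor of pluripotent cells, was at 213 CPM, against 50.7 and 371, and Sox2, the partner of OCT4 on DNA, at 63.8, against 22.6 and 80.4. Nanog was rare, at 6.80 CPM in the cells with both genes and 19.2 with Pou5f1 only, and only 2 of its UMIs were counted in the cells with Sycp3 only (0.274 CPM). Of the list, 9 genes entered against Sycp3 only and 8 were higher. The exception was Zfp42, which encodes REX1, at 37.1 against 23.4 CPM. Against Pou5f1 only, 1 of 11 genes was lower, Gdf3, a TGF-beta family ligand, at 10.6 against 28.8 CPM. The median log2 ratios were 1.62 and -0.57.

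Among genes of germ cell specification, Tfap2c, a factor induced at specification, was at 23.1, 4.79 and 43.2 CPM, and the receptor gene Kit at 33.8, 21.2 and 50.2 CPM. Of 5 that entered against each class, 2, Tfap2c and Ifitm3, were higher than with Sycp3 only and none passed against Pou5f1 only.

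**Figure D3:**
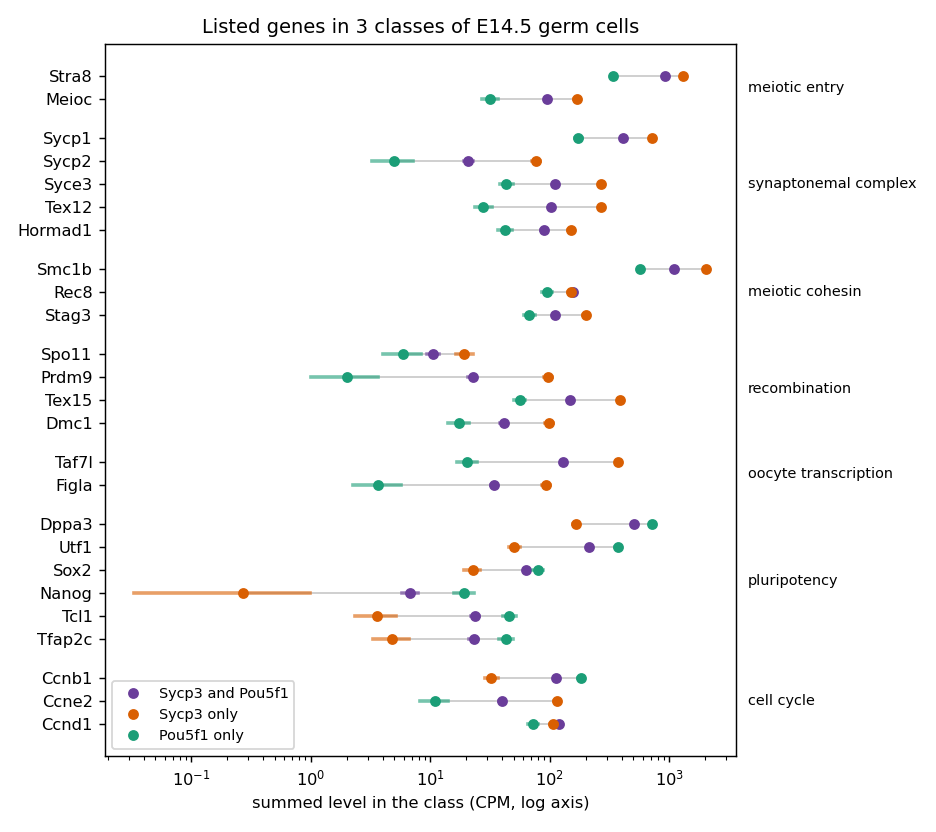
Level of listed genes (x axis, CPM, log scale) in the E14.5 germ cells with both genes, Sycp3 only and Pou5f1 only, grouped by role. Points are summed levels and coloured lines Poisson 95% intervals, and in nearly every row the point for the cells with both genes lies between the others, as for Prdm9 at 22.6 CPM between 96.7 and 2.03. Rec8 and Ccnd1 are the exceptions drawn.

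Cell cycle genes did not move as one group. The summed S phase list stood at 1201 CPM in the cells with both genes, 1044 with Sycp3 only and 1233 with Pou5f1 only. Within it Ccne2, a cyclin of the G1 to S transition, went the other way at 40.2 CPM, against 115 and 10.9. Ccnb1, the cyclin that drives mitotic entry, was at 113 CPM (109 to 117), 3.48-fold above the cells with Sycp3 only (32.5) and below those with Pou5f1 only (182). Ccna2 and Plk1 were also higher than with Sycp3 only, at 73.9 against 30.8 and 39.3 against 15.9 CPM. By contrast, Mki67, Top2a and Birc5 differed by less than 1.5-fold from either class, with Top2a at 390, 430 and 397 CPM. Of 10 genes of the list for G2 and mitosis that entered, 3 were higher than with Sycp3 only. Ccnd1 was highest in the cells with both genes, at 120 CPM (116 to 125), against 107 (99.7 to 115) and 72.5 (65.5 to 80.0). Trp53, the gene of the tumour suppressor p53, was at 55.4, 20.4 and 110 CPM, and its target Cdkn1a at 70.9, 26.2 and 86.1 CPM.

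The genes with the largest ratios included some outside the lists. Class I histocompatibility genes H2-D1 and H2-K1 were at 41.9 and 63.4 CPM in the cells with both genes, 146 and 206 with Sycp3 only and 4.24 and 13.8 with Pou5f1 only. H2-Ab1, a class II gene, was at 21.1, 85 and 3.32 CPM. The H2-D1 UMIs were spread over 581 of the 1541 cells, with at most 9 in 1 cell, and the summed immune markers were 19.6, 10.8 and 10.1 CPM. Of the immune markers, C1qa, Fcer1g and Csf1r were looked at cell by cell. The 4 cells with most UMIs, taken for each gene on its own, held 80.3% of the C1qa UMIs, 75.3% of Fcer1g and 92.9% of Csf1r. The spread of the other immune markers over cells was not examined. The part of immune cell RNA in the histocompatibility genes was not tested. Reads of H2-D1 and H2-K1 can be shared between close paralogs, as can those of the X-linked Xlr family, of which Xlr4c was at 56.6, 144 and 10.7 CPM. Dmrtc2, a DM-domain gene of meiotic germ cells, was at 63.6, 191 and 8.67 CPM and Lypd4, a Ly6-domain gene, at 21.4, 76.1 and 1.66 CPM. In the other direction, Phlda2, an imprinted growth regulator, was at 435, 105 and 709 CPM, and Tdh, threonine dehydrogenase, at 56.4, 13.6 and 98.9 CPM.

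A total of 61 genes were lower than with Sycp3 only and higher than with Pou5f1 only, 31.1% of the 196 and 58.7% of the 104. The reverse pair of calls held for 2 genes, Calcoco2 and Mt2, 1.69% of the 118 and 14.3% of the 14. Calcoco2, an autophagy receptor, was at 23.2, 3.70 and 48.5 CPM and Mt2, a metallothionein, at 84.3, 35.1 and 174 CPM. No gene was higher, or lower, than in both other classes by the rule.

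Interstitial cell genes also differed. Col1a1, Col1a2 and Col3a1, collagens of stromal cells, were lower in the cells with both genes than with Sycp3 only, at 9.57 against 22.5, 13.7 against 31.2 and 15.2 against 35.6 CPM. The 9 summed interstitial markers were at 61.3, 138 and 55.5 CPM and the 12 supporting markers at 100, 139 and 135 CPM. Hbb-y passed against Pou5f1 only with 150 against 74.2 CPM, and stood at 72.9 CPM without the 2 cells named above. When cells with many UMIs of other cell types' markers were left out, 127 of them from the 1541, the meiosis panel ratios were -0.84 and 0.90 and those of the pluripotency panel 1.66 and -0.59. The part of such RNA in single genes was not tested.

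To describe the range within the class, its cells were ranked by the meiosis panel in the sorting set and cut into 4 groups of 385 or 386 cells, with levels taken from the reading set. The cuts lay at 3408, 4973 and 7390 CPM, with 184, 197 and 212 cells within 10% of them, so the groups are ranges and not types. Median depth fell from 20272 through 17333 and 15294 to 13980 UMIs from the lowest group to the highest. The meiosis panel read 2706, 4196, 6066 and 9090 CPM and the pluripotency panel 1702, 1219, 850 and 450 CPM. The order of the meiosis panel follows from the ranking. The pluripotency level of the lowest group lay near that of all cells with Pou5f1 only (1695 CPM), and that of the highest group stayed above that of all cells with Sycp3 only (362 CPM).

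Genes differed in where along this ranking they changed most. Stra8, Rec8, Prdm9 and Tex12 belong to the panel that ranked the cells, so that higher levels in higher groups are built in for them, while Ccnd1, Msx1, Taf7l, Figla and Sycp3 do not. Stra8 read 321 CPM (304 to 339), 770 (742 to 800), 1205 (1167 to 1244) and 1633 (1586 to 1681). Its widest step in ratio lay between the lowest 2 groups. Rec8 read 75, 165, 219 and 197 CPM, so it did not rise further from group 3 to group 4. Ccnd1 had a similar course at 64.3, 120, 164 and 154 CPM. Msx1, a BMP target, read 53.8, 94.0, 126 and 127 CPM. Prdm9 was near absent in group 1 at 1.43 CPM (0.524 to 3.11, 6 UMIs) and read 6.14 CPM in group 2 and 80.1 CPM in group 4. Taf7l read 24.0, 44.6, 162 and 340 CPM, Tex12 29.8, 48.0, 117 and 260 CPM, and Figla 4.05, 17.9, 42.5 and 91.5 CPM. Sycp3, a gene of the rule, read 103, 182, 319 and 677 CPM.

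Most of the pluripotency genes named here read lower in each successive group, at unequal ratios. Nanog read 17.1, 5.30 and 1.61 CPM and had 0 UMIs in group 4, where the interval reaches 1.32 CPM. Dppa2, a chromatin factor, read 39.8, 25.9, 9.99 and 2.50 CPM and Tcl1, a co-activator of AKT kinase, 48.6, 27.3, 7.73 and 3.22 CPM. Klf2 read 21.9, 10.6, 7.09 and 12.2 CPM, and Klf4 read 3.57 CPM in group 1 and 6.69 in group 2. Both were rare, so the rise of Klf2 after group 3 and that of Klf4 after group 1 rest on few UMIs. The ratio was smaller for Dppa3, at 730, 587, 416 and 195 CPM, and for Sox2, at 79.5, 73.1, 60.9 and 42.2 CPM. Pou5f1, which the rule requires in every cell, read 275, 214, 170 and 125 CPM. Ccnb1 read 192, 133, 63.5 and 19.3 CPM and Trp53 96.2, 60.8, 29.7 and 15.7 CPM, while the S phase list held at 1198, 1175, 1235 and 1219 CPM.

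**Figure D4:**
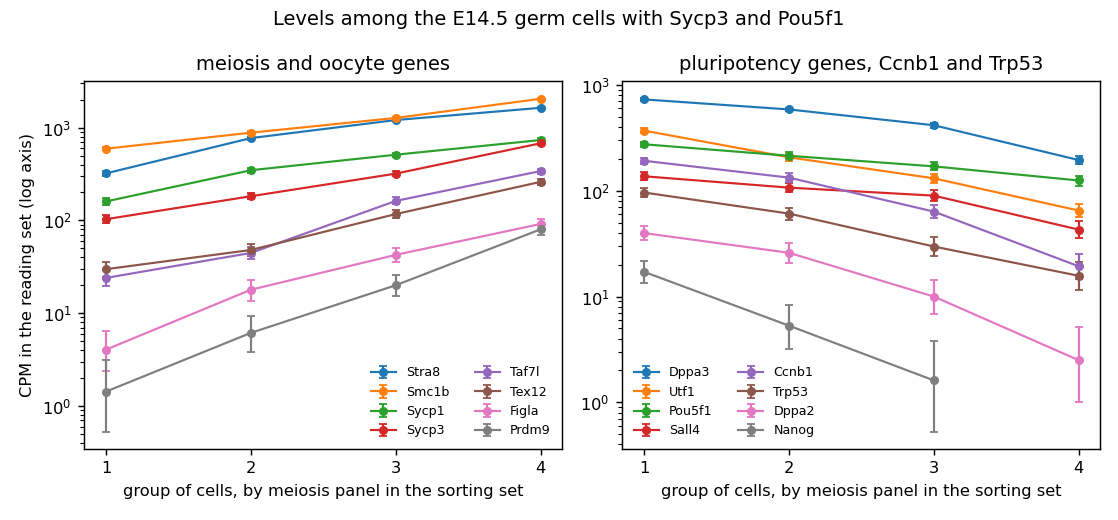
Level in the reading set (y axis, CPM, log scale) of meiosis and oocyte genes (left) and of pluripotency genes, Ccnb1 and Trp53 (right) in 4 groups of the E14.5 germ cells with both genes, ranked by the meiosis panel in the sorting set (x axis, from lowest to highest). Lines join summed levels with Poisson 95% intervals. Prdm9 goes from 1.43 to 80.1 CPM and Nanog from 17.1 CPM to a count of 0 in group 4, which a log axis cannot draw.

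Cells with both transcripts were present at the earlier stages. They numbered 85 of 242 gated cells at E11.5 (35.1%), 289 of 668 at E12.5 (43.3%) and 393 of 783 at E13.5 (50.2%), with median depths of 33899, 29793 and 26137 UMIs, all above the 16302 at E14.5. Thinned to 7500 UMIs, the E11.5 share was 14.2% (8.62 to 21.5, 18 of 127 cells). For the E12.5 library the interval ran from 8.90% to 14.4% (62 of 541 cells). The E13.5 share was 17.5% (14.8 to 20.5, 123 of 703 cells). All lay below the 39.7% of E14.5 (939 of 2366 cells). The gate was applied after thinning and lost many cells at E11.5, where 242 had passed with all UMIs, but few of the 2390 at E14.5. The thinned shares therefore rest on cells selected to different extents and are no like-for-like series of stages. At E13.5, 540 cells of the library were too shallow to be thinned and were left out. The product of the shares with Sycp3 and with Pou5f1 at that depth was 11.8% at E11.5, 10.8% at E12.5 and 18.6% at E13.5, near the share with both genes at each stage. In the cells with both genes the meiosis panel was 865, 1196, 1835 and 5170 CPM from E11.5 to E14.5, and the pluripotency panel 2709, 2453, 1876 and 1122 CPM.

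Between the cells with both genes at E14.5 and at E13.5, 5555 genes entered and 424 passed (7.63%), 327 higher (5.89%) and 97 lower (1.75%) at E14.5, with a median log2 ratio of 0.15 over all that entered. Stra8 was at 159 CPM at E13.5 and 920 at E14.5, Sycp1 at 66.3 and 408, and Smc1b at 344 and 1103. Taf7l went from 10.4 to 128 CPM and Prdm9 from 1.40 to 22.6 CPM. Of 11 synaptonemal complex genes 8 were higher at E14.5, and of 12 recombination genes that entered 6 were. Of 14 pluripotency genes 7 were lower, among them Klf2, a Krüppel-like factor, from 64.4 to 13.9 CPM and Utf1 from 469 to 213 CPM. Dppa3 changed less, from 619 to 511 CPM. Cdkn2d, a CDK inhibitor, stood at 41.5 CPM at E13.5 and 119 at E14.5. Levels of the erythroid markers also differed between these libraries, at 790 and 1262 CPM.

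At E13.5 the meiosis panel was 1835 CPM in the cells with both genes, 2654 in 31 cells with Sycp3 only and 1463 in 329 cells with Pou5f1 only. The pluripotency panel was 1876, 1238 and 2049 CPM. The log2 ratio of the meiotic entry list against Sycp3 only was further from 0 at the earlier stage (-0.91, interval -1.06 to -0.76) than at the later one (-0.47, interval -0.50 to -0.44). For the synaptonemal complex list it was nearer to 0 at the earlier stage, with -0.32 against -0.87.

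**Figure D5:**
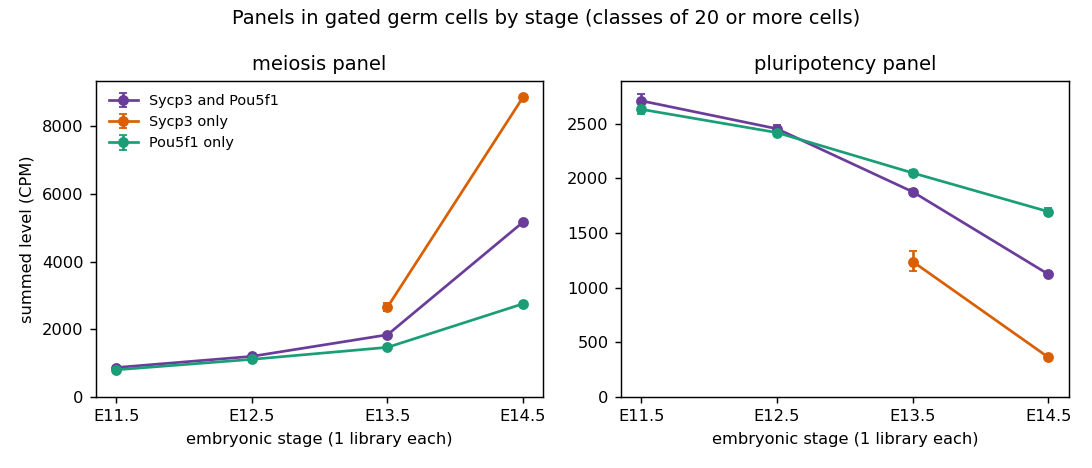
Meiosis panel (left) and pluripotency panel (right) as summed level (y axis, CPM) in gated germ cells with both genes, Sycp3 only and Pou5f1 only at each stage (x axis), for classes of at least 20 cells. Points carry Poisson 95% intervals, mostly within the symbol, and the cells with both genes go from 865 to 5170 CPM on the left and from 2709 to 1122 CPM on the right.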

How the data were processed

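The deposited values are natural log values that the authors made as ln(1 + UMIs of a gene per 10000 UMIs of its cell), read from the values themselves. The submitters' processing notes name Cell Ranger 2.2.0 and mm10, and filters are not given in the sources used here. All 69792436 values above 0 (100%) were whole multiples of 1 UMI at a relative tolerance of 1e-06, so UMI counts of 19321 genes were recovered, where counts in the table had been assumed. Column prefixes gave the stage.

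UMIs were summed per class and scaled to CPM, with exact 95% Poisson, binomial-ratio and Clopper-Pearson intervals (scipy 1.17.1). With 1 library per stage no test was run. UMIs were thinned to 7500 or 2000 per cell, or split into sets of equal odds, with seed 1. Doublets were scored with Scrublet in scanpy 1.11.5 (assumed rate 0.06, 30 components) and kept. On simulated data of 19321 genes the rule of size recovered 100% of 200 genes changed 4-fold in each of the 2 E14.5 comparisons, with 0 false calls. The simulated counts held Poisson error only, which the intervals assume, and the changed genes were abundant. The simulation therefore checks the arithmetic and does not measure error for smaller ratios or for differences between cells. The members and gene lists were chosen with earlier results of these data known. Named genes are examples from each list with the largest or smallest ratio or most UMIs, others of known role, and genes among the 10 most extreme of each comparison. Some genes are not reported here.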

Additional observations from a re-analysis of the deposited data

Results flagged for a closer look

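A total of 52 E14.5 cells had both genes and at least 3 gate genes but were left out for a UMI of Alas2. Their erythroid markers summed to 70341 CPM, but the median cell held 21 such UMIs against 17 in the cells with both genes, so a few cells carried most of the sum. Their meiosis panel was 4526 CPM and their pluripotency panel 941 CPM, and 6 of them were called doublets. A further 7 cells had both genes and no Alas2 with fewer than 3 gate genes. They had a median of 17411 UMIs and a meiosis panel of 344 CPM, and 4 of them were among the 1434 cells without any gate gene.

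Some lists differed from a neighbouring class in opposite directions at E13.5 and E14.5. The difference between the stages was not tested, and the classes were called at unlike depth at E13.5 and E14.5. For mitotic cohesin the log2 ratio of the cells with both genes was 0.22 against Sycp3 only at E13.5 and -0.09 at E14.5. Against Pou5f1 only it was 0.06 (0.01 to 0.11) and -0.05 (-0.10 to -0.01). These last ratios are small, and their intervals cover counting error only. For G2 and mitosis the log2 ratio was 0.10 and -0.24 against Pou5f1 only. For G1 cyclins and CDK inhibitors it was -0.57 and 0.13 against Sycp3 only, a class of 31 cells at E13.5. The erythroid markers had -0.07 and 0.27 against Pou5f1 only. At E14.5 the median cells of these classes were at 1041 and 1042 CPM, and 2 cells held 2122 Hbb-y and 2 cells 1737 Hba-a1 UMIs of the 34546 erythroid UMIs in the cells with both genes.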

How the results depend on the processing

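The direction of the 4 panel ratios was the same under every alternative run for them. The gate of at least 2 gate genes and the thinning to 2000 UMIs were not run for these ratios. The share of cells with both genes was 60.6% with a gate of at least 2 gate genes, 67.2% with at least 5, 39.7% and 8.65% after thinning to 7500 and 2000 UMIs, and 36.4% with at least 2 UMIs of each gene. The meiosis panel ratio against Sycp3 only was -0.80 with 5 gate genes, -0.54 thinned, -0.85 with 2 UMIs, -0.63 in cells of 10000 to 20000 UMIs, -0.84 without cells rich in other types' markers, -0.71 with classes from 1 set of UMIs and levels from the other, and -0.70 as a mean over cells. Against Pou5f1 only it was 0.86, 0.83, 0.84 and 0.99 in the first 4 of these, 0.74 with split UMIs, 0.97 as a mean and 0.85 on a median-of-ratios scale. The pluripotency ratio against Sycp3 only was 1.56 with 5 gate genes, 1.09 thinned, 1.47 in the depth window, 1.24 with split UMIs and 1.57 as a mean. Against Pou5f1 only it was -0.67 thinned, -0.54 with 2 UMIs, -0.75 in the window, -0.54 split, -0.67 as a mean and -0.66 on the median-of-ratios scale.

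The 314 genes past the limits against Sycp3 only became 112 thinned (36 higher, 76 lower), 437 with 2 UMIs (145, 292), 440 without cells rich in other types' markers (187, 253), 207 in the window (100 higher, 107 lower), 970 without a CPM minimum (533, 437) and 13 at a ratio of 4 (10, 3). The 118 against Pou5f1 only became 76 with 2 UMIs, 202 in the window (156, 46), 75 split, 481 without a CPM minimum and 16 at a ratio of 4. The share with Stra8 was 75.7% at 2000 UMIs, 97.0% unthinned and 95.8% in the window. The cause of these shifts was not tested. Leaving out cells rich in other types' markers, keeping Alas2 cells and splitting UMIs were chosen after seeing the data. No paired analysis was possible because each stage has 1 library. Depth limits rare genes such as Nanog and Spo11 and moves with the share of cells that show both genes.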

Other observations

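In the cells with both genes, with Sycp3 only and with Pou5f1 only, the germline gene repressor list summed to 720, 803 and 673 CPM, and none of its 11 genes that entered passed either comparison. Its member with the widest ratios was Setdb1, a histone H3 methyltransferase, at 80.7, 135 and 55.2 CPM. Of DNA methylation genes, Tet1, which oxidises methylcytosine, was at 40.3, 14.1 and 74.2 CPM and passed as higher than with Sycp3 only, while the maintenance methyltransferase Dnmt1 was at 170, 183 and 161 CPM. Uhrf1, its cofactor, was at 44.8 CPM in the cells with both genes at E14.5 and 18.5 CPM at E13.5. In the piRNA list, Gtsf1 was at 24.6, 46.6 and 10.1 CPM and the only gene of 6 that passed, against Pou5f1 only. The BMP targets Id1 and Id3 were at 193, 210 and 147 CPM and 361, 399 and 303 CPM.

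The 36 gated cells with neither gene had a median of 12671 UMIs. Stra8 was seen in 44.4% of them (27.9 to 61.9) at 7500 UMIs, and their erythroid markers summed to 3230 CPM with a median cell at 1210 CPM.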
